A study of Mus musculus with 8 samples.

Results

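The SR splicing factors were examined as a family of 10 genes, Srsf1, Srsf2, Srsf3, Srsf4, Srsf5, Srsf6, Srsf7, Srsf9, Srsf10 and Srsf11. They were taken by row name from the deposited table, which lists 18694 features, made up of 17597 genes and 1097 subfamilies of transposable elements. All 10 names were present. The libraries came from mouse embryonic stem cells (Cast x 129S strain background) in which a TetOn promoter, a promoter switched on by doxycycline, had been put in place of the promoter of 1 Xist allele. The labels give this allele as 129S, whereas the study places these tagged clones themselves on a background inducible from the Cast X chromosome. The conflict was not checked on reads here. In every library METTL3, the catalytic subunit of the m6A writer, carried the degron domain FKBP12F36V, which the small molecule dTAG-13 directs to degradation. The untreated group held 4 libraries and the dTAG-13 group, treated for 26 hours, held another 4. Both groups held 2 replicates of clone C3 and another 2 of clone H5, and no library had received doxycycline. The controls thus carried the same tag and the same Xist promoter as the treated cells, and each clone is a single cell line. The cells were grown on mitomycin-treated mouse fibroblast feeders, and the share of feeder RNA in each library was not measured.

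SR proteins bind pre-mRNA through RNA recognition motifs and recruit the splicing machinery through a domain rich in neighbouring arginines and serines, the RS domain. They define exons, and several of them also take part in mRNA export and translation. SRPK and CLK kinases phosphorylate the RS domain, and the importin TNPO3 (transportin-3) carries the phosphorylated proteins into the nucleus. Many SR genes limit their own output by splicing into transcripts that nonsense-mediated decay (NMD) removes. In the m6A pathway, the nuclear reader YTHDC1 is known to bind SRSF3 and SRSF10.

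The level used here is the mean count, the authors' mean of read counts divided by a size factor for each library. The column names no library, and from its name it is taken as the mean over all 8. The mean count so read pools treated and untreated cells and carries no spread. It therefore lies between the levels of both groups, gives no value for a single library, and allows no test of one gene against its neighbour in the order of levels. The table's other columns hold the authors' own comparison of the groups and were not used, so no difference between dTAG-13 and untreated cells is given. Levels of single genes were compared per kb of transcript, as the mean count divided by the length of the coding transcript with the longest coding sequence. Mean counts also grow with transcript length, and they are given as values and, where named as such, as sums, medians, shares or a minimum. In these bulk cultures, fewer cells with a transcript and less of it per cell cannot be told apart.

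The SR genes lay high in the distribution of levels. Their median level was 1861 mean counts per kb, against 68.8 over the 16326 genes with a coding transcript, and the median of their percentiles per kb was 96.0. On the scale of mean counts, the median was 4893 for the family against 170 for all genes. The 10 genes together took 52077 mean counts, or 0.357% of the sum over all genes. Srsf1 and Srsf3 held 40.8% of the family's counts. The lowest member per kb was Srsf4, under each of 4 choices of transcript length. The highest member, Srsf1, stood 25.8 times above it, but this ratio rests on a short Srsf1 transcript, and the highest member stood 8.63 to 11.7 times above Srsf4 with the other lengths.

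**Figure D1:**
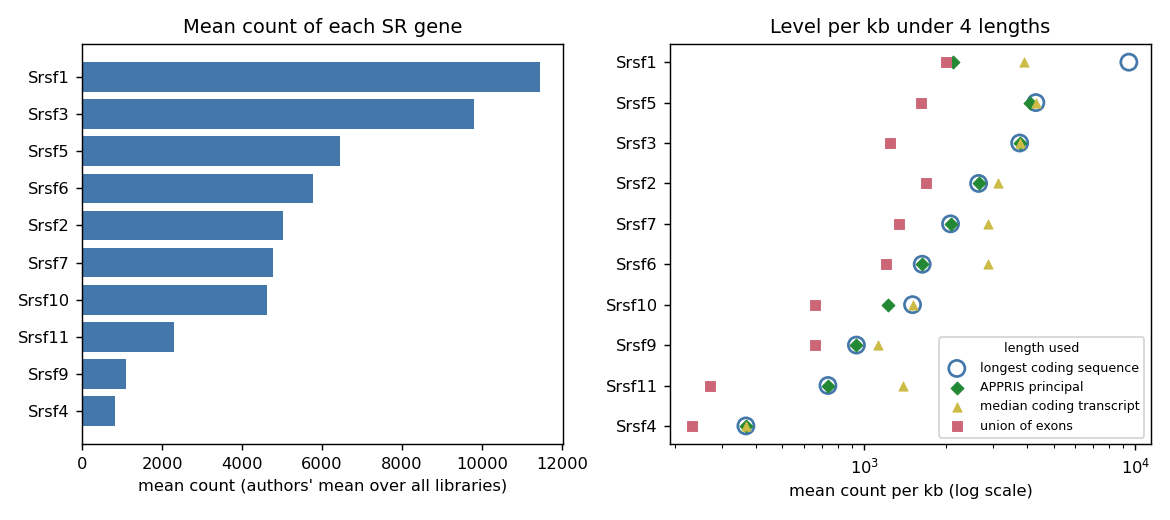
Left, mean count of each SR gene (linear axis, bars from 0, the authors' mean, taken as over all 8 libraries, which has no error bar). Right, mean count per kb (log axis) with 4 choices of transcript length: Srsf1 moves from 9469 with the coding transcript of longest coding sequence to 2135 with the APPRIS principal transcript, while Srsf4 is lowest under each choice.

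SRSF1 and SRSF9 are close relatives, each with a pair of RNA recognition motifs, and SRSF1 is the archetype of the family, known for exon definition and for promoting NMD. Srsf1 (chr11:88047373-88053755, plus strand, mm10) had a mean count of 11448. Its level was 9469 per kb, at percentile 99.5. This value rests on the length of 1209 bases of Srsf1-202, a transcript that the annotation tags as not supported in this organism. On the APPRIS principal transcript, the isoform that the APPRIS annotation selects as the main one, with 5362 bases, the level was 2135 per kb, below those of Srsf5, Srsf3 and Srsf2. Srsf9 (chr5:115327177-115333080, plus strand) had a mean count of 1089 and a level of 937 per kb. Srsf1 thus stood 10.1 times above Srsf9 per kb, and 2.28 times above it on APPRIS principal transcripts. Srsf1 was the higher of the pair under each of the 4 lengths tried.

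The RS domains of these relatives differ in the coding sequence itself. Shown here are the 60-base coding stretches, in frame, that hold the most arginine-serine neighbours in Srsf1 and Srsf9, and in Srsf2 and Srsf7, whose proteins were the densest of the family in such neighbours. Capitals mark the codons for an arginine next to a serine, or the reverse, and lower case marks other codons.
Srsf1: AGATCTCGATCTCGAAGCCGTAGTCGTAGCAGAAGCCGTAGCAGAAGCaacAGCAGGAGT
Srsf9: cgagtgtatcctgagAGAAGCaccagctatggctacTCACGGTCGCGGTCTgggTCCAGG
Srsf2: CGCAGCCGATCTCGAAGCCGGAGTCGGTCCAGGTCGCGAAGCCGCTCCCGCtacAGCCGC
Srsf7: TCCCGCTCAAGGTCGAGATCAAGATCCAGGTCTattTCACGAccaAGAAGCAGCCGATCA
The Srsf1 stretch lies at chr11:88049469-88049528 on the plus strand, within 1 coding exon, and spans codons 204 to 223. The Srsf9 stretch lies at chr5:115332594-115332653 on the plus strand, within 1 coding exon, and spans codons 182 to 201. The Srsf2 stretch lies at chr11:116852256-116852315 on the minus strand, within 1 coding exon, and spans codons 127 to 146. The Srsf7 stretch crosses an exon junction, so that chr17:80202198-80202743 (minus strand) also covers an intron, and spans codons 192 to 211. The Srsf1 and Srsf2 stretches each hold 19 of 20 codons in such pairs, the Srsf7 stretch 18 and the Srsf9 stretch 9. The same contrast held over whole proteins. Translated from the same transcripts, SRSF9 had 4.05 arginine-serine neighbours per 100 residues, the lowest of the family, and SRSF1 had 11.9.

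SRSF2, also known as SC35, is a marker of nuclear speckles, the nuclear bodies where splicing factors gather. Srsf2 (chr11:116849901-116853094, minus strand) had a mean count of 5020 and a level of 2643 per kb, at percentile 97.5. It is the most compact gene of the family, with a span of 3.19 kb and 3 exons in the transcript used. Its protein was the densest in arginine-serine neighbours of all 13022 coding genes whose mean count reached 10, at 23.5 per 100 residues, and SRSF7 was next with 23.1.

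SRSF3 and SRSF7 are small SR proteins with a single RNA recognition motif, and both act as adaptors for mRNA export through NXF1. Srsf3 (chr17:29032628-29043373, plus strand) had a mean count of 9811 and a level of 3748 per kb. Srsf7 (chr17:80200080-80207307, minus strand) had a mean count of 4767 and a level of 2083 per kb. Srsf3 stood 1.80 times above Srsf7 per kb with the coding transcript. With the union of all annotated exons as the length, the ratio was 0.925, so the order of this pair turned with the length chosen. SRSF3 had the shortest protein of the family, 164 residues, in a transcript whose 3′ untranslated region took 1965 of 2618 bases. The stop codon is counted within that region.

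SRSF4, SRSF5 and SRSF6 form a group with a second, divergent RNA recognition motif. Srsf5 (chr12:80945504-80950507, plus strand) had a mean count of 6440 and a level of 4299 per kb. Srsf6 (chr2:162931528-162937121, plus strand) had a mean count of 5776 and a level of 1638 per kb. Srsf4 (chr4:131873617-131901706, plus strand) had a mean count of 827 and a level of 367 per kb, at percentile 78.9. Per kb, Srsf4 was 0.0853 times as high as Srsf5 and 0.224 times as high as Srsf6. Srsf4 was below both relatives under each of the 4 lengths tried, with ratios to Srsf5 from 0.0853 to 0.144 and to Srsf6 from 0.128 to 0.224. Srsf6 had the longest spliced transcript, 3527 bases, and Srsf4 the longest gene, 28.1 kb.

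SRSF10 is known as a splicing regulator that its dephosphorylation turns into a repressor, and SRSF11, also called p54, is a more distant member. Srsf10 (chr4:135855747-135869908, plus strand) had a mean count of 4614 and a level of 1509 per kb. Srsf11 (chr3:158010473-158036639, minus strand) had a mean count of 2285 and a level of 736 per kb. Srsf10 stood 2.05 times above Srsf11 with the coding transcript, and 1.09 times above it with the median length of coding transcripts. Srsf11 had the most annotated transcripts, 19, of which 11 were retained-intron transcripts, and the most exons, 13.

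**Figure D2:**
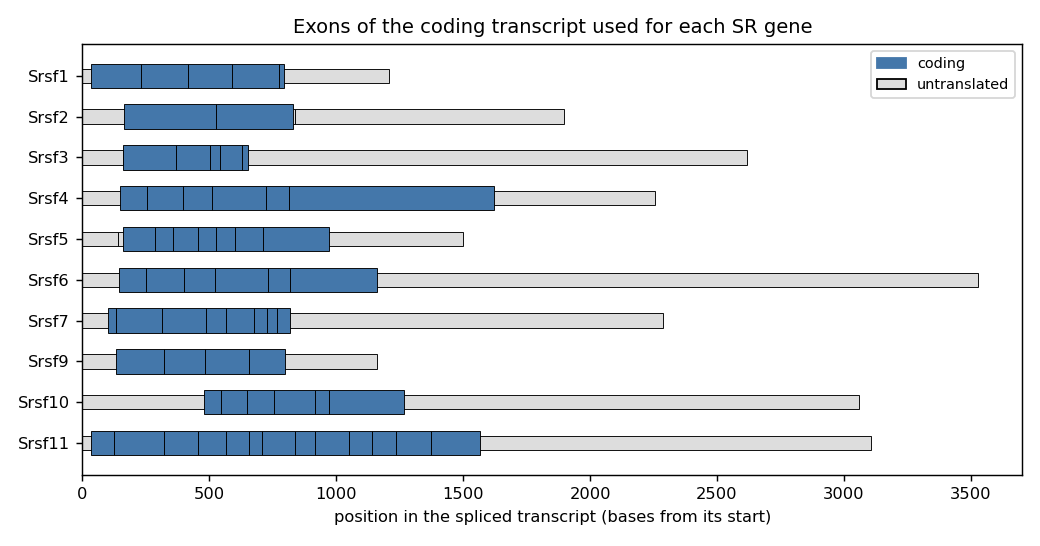
Exons of the coding transcript used for each SR gene, drawn to scale along the spliced transcript in bases from its start (blue, coding; grey, untranslated). Coding length ran from 492 bases in Srsf3 to 1533 in Srsf11, and Srsf6 had the longest 3′ untranslated region, 2367 bases. Stop codons are counted as untranslated.

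As a family, the SR genes were short and held short proteins beside the 13022 coding genes whose mean count reached 10. Their median coding length was 773 bases against 1422, with 2 of 10 members above that background median, Srsf4 and Srsf11. Their median genomic span was 6.81 kb against 24.7 kb, again with Srsf4 and Srsf11 as the 2 above it. The number of annotated transcripts ran the other way, with a median of 7.5 against 5 and 7 of 10 members above. For coding lengths, spans and transcript numbers, the background was not matched for gene level. At least 1 transcript annotated as a target of NMD was present in 9 of 10 members, all but Srsf10. The share was 27.9% of the background genes, and 31.3% of the 4132 coding genes at least as high in mean count as Srsf4. Retained-intron transcripts were annotated in 8 of 10 members, all but Srsf9 and Srsf10, against 57.8% and 68.7% of the same backgrounds. These counts describe the annotation, and the table holds no level for a single transcript.

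All 10 members lay above the background median of 0.789 arginine-serine neighbours per 100 residues, with values from 4.05 to 23.5. SR proteins are grouped by their RS domain, so high values and ranks followed from the choice of members and describe the family only. The highest 5 ranks of the 13022 genes were all SR genes, in the order Srsf2, Srsf7, Srsf6, Srsf4 and Srsf5. Srsf10 and Srsf3 held ranks 8 and 9, and Srsf1, Srsf11 and Srsf9 held ranks 14, 26 and 68.

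The letters GGAC, the most common core of the m6A consensus, were counted on the sense strand of the same transcripts. Their density ran from 1.15 per kb in Srsf3 to 10.3 per kb in Srsf9. The background median was 4.25, and 4 of 10 members lay above it, namely Srsf1, Srsf4, Srsf5 and Srsf9. The value of Srsf1, 6.62 per kb, rests on the short transcript Srsf1-202, and none is given for its APPRIS principal transcript. Srsf3 held 3 matches in 2618 bases and Srsf9 held 12 in 1162 bases. A match is a description of the letters and not a measured m6A site.

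RefSeq (GRCm38.p6) gave 13 promoter windows, of 250 bases before and 50 after a start, for the 10 members. The letters GGGCGG, the GC box bound by SP factors, were found on either strand in 12 of these windows, against 35.7% of all 32851 windows, and the exception was Srsf3. The GC content of the 13 windows ran from 56.0% in Srsf5 to 78.3% in Srsf4, all above the median of 52.7% over all windows. The background was matched neither for GC content nor for gene level. Whether the share of GC boxes is particular to SR genes was not tested. TATAAA was found in 2 windows, those of Srsf2 and Srsf3, against 13.6% of all windows. CCAAT was found in 4 windows, those of Srsf1, Srsf2, Srsf3 and Srsf10, against 37.4%. CACGTG was found in none, against 7.15%. Of the 3 windows of Srsf4, 2 overlap, so the windows are not independent.

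Several members shared stretches of sequence with other annotated genes, which bears on what their counts can hold. Every stretch of 81 bases, the length of 1 read, in each member's transcript was looked for in all other annotated transcripts on both strands. Srsf4, the lowest member, shared 63.4% of its stretches with Gm12992, a noncoding transcript on the opposite strand of the same locus, which had a mean count of 47.5. Srsf2 shared 32.4% with Mettl23 and Mfsd11, protein-coding genes that overlap it on the opposite strand and had mean counts of 94.3 and 208. The kit marks strand, but the strand setting of the counting is not certain from the sources used here. The study states default parameters for the counting, while the name given to the deposited data holds the word reverse. Reads of these pairs may thus not have been told apart. Srsf3 shared 24.1% of its stretches with 3 genes at other loci, Srsf5 22.6% with the pseudogene Gm12966, and Srsf10 15.9% with 3 genes at other loci, of which 2 are pseudogenes. None of these copies had a row in the table under its annotated name. The study kept unique alignments, so read pairs that lie wholly in a shared stretch could have been left out, and their part in the levels of Srsf3, Srsf5 and Srsf10 was not tested. Srsf1 shared 1.86% with the antisense gene Gm11508, and Srsf6, Srsf7, Srsf9 and Srsf11 shared none. Only the coding transcript used for each gene was searched, so other annotated exons of these genes were not covered. For Srsf1 the search covered Srsf1-202, with 1209 bases against 5362 in its APPRIS principal transcript. For Srsf11 it covered 3106 bases, against 8446 in the union of exons.

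**Figure D3:**
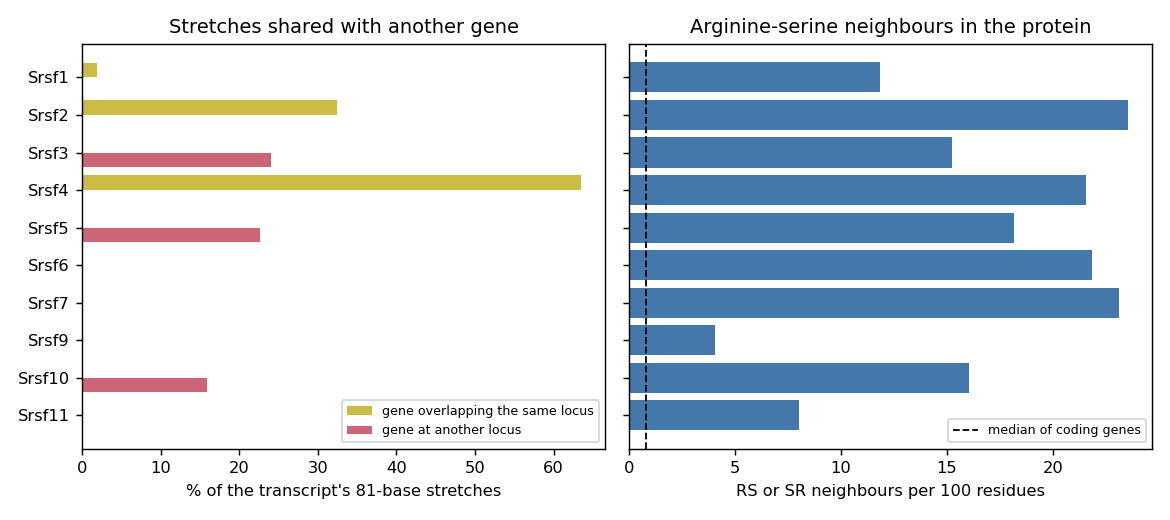
Left, percent of each SR transcript's 81-base stretches that another annotated gene also holds, split by whether that gene overlaps the same locus: Srsf4 is highest at 63.4%. Right, arginine-serine neighbours per 100 residues of each SR protein, from 4.05 in SRSF9 to 23.5 in SRSF2, with the dashed line at the median of 13022 coding genes.

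The family was then set beside other splicing genes. A chosen list of 12 other splicing genes with an RS domain, not all such genes, had a median of 1067 mean counts per kb. It ran from 7.48 in Srsf12, the SR relative left outside the family studied here, to 3276 in U2af1. U2af1 is the small subunit of the factor that reads the 3′ splice site. The large subunit of that factor, U2af2, stood at 2992 per kb and Snrnp70, of the U1 snRNP, at 2416. The SR-like activators Tra2a and Tra2b stood at 1476 and 1756 per kb. The exon junction and speckle factors were spread more widely, with Rnps1 at 2086, Son and Srrm2 both at 657, Pnn at 610, Acin1 at 588 and Srrm1 at 310 per kb. The 26 hnRNP genes, whose products often act against SR proteins on exons, had a median of 1804 per kb, close to the 1861 of the SR family. They ran from 152 in Hnrnpr to 9628 in Hnrnpf. Hnrnpr had a mean count of 3271, and Hnrnph3, the lowest by mean count, had 394. The low place of Hnrnpr per kb thus rests on the transcript length used, and other lengths are not given for these lists.

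The genes that act on SR proteins were lower. The 8 genes for kinases and import had a median of 277 per kb. Clk1, a nuclear kinase that releases SR proteins from speckles, was highest at 1415 per kb, followed by Tnpo3 at 1188 and Srpk1 at 878. Clk4, Clk3 and Clk2 stood at 284, 269 and 239 per kb and Srpk2 at 112. Srpk3, known from muscle, stood at 0.493 per kb. Of the m6A genes, Wtap, an adaptor of the writer complex, stood at 2342 per kb and Ythdc1 at 1197. Mettl3 itself stood at 338 per kb and its partner Mettl14 at 261, and Srsf4, at 367 per kb, was the SR gene nearest to both. The degron acts on METTL3 protein, so the RNA level of Mettl3 does not check the treatment.

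**Figure D4:**
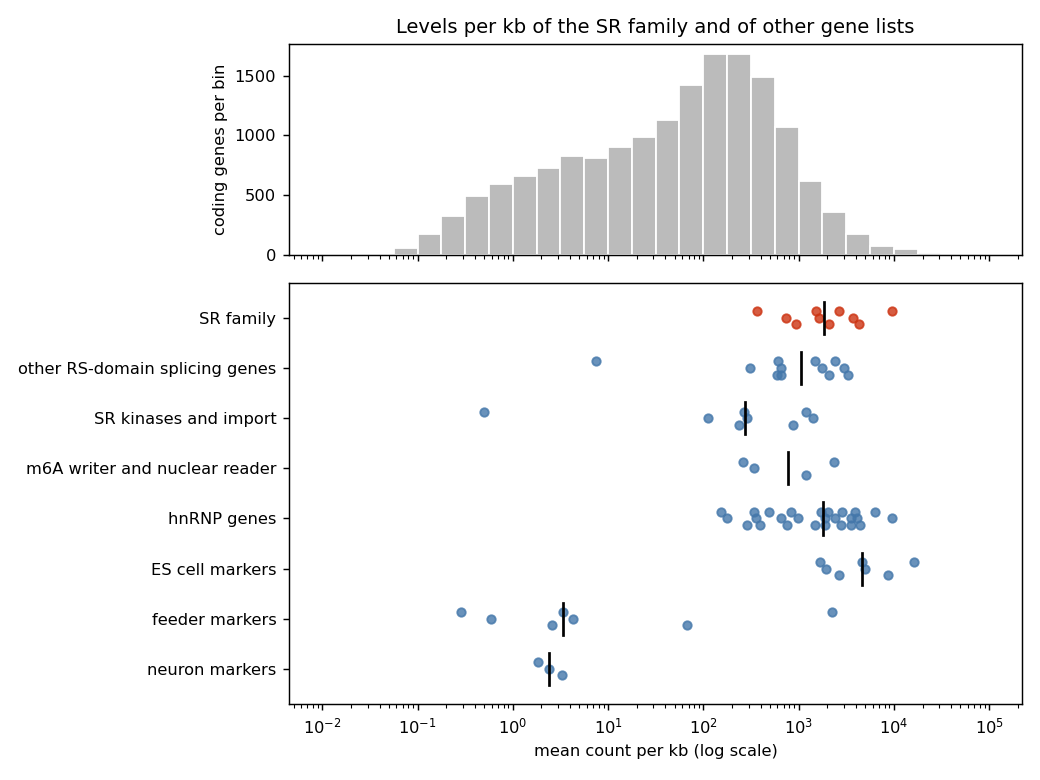
Top, number of coding genes per bin of mean count per kb (log axis). Bottom, each gene of the SR family (red) and of 7 other lists (blue), with the list's median as a black line: the SR family at 1861 and the hnRNP genes at 1804 lie close together, and the feeder markers have a median of 3.34.

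The cell type was checked on marker genes. All 7 markers of embryonic stem cells were present, with Sox2 at 1674 mean counts per kb, Esrrb at 1926, Nanog at 2683, Tdgf1 at 4654, Zfp42 at 4956, Pou5f1 at 8762 and Dppa5a at 16142. The 7 fibroblast markers had a median of 3.34 per kb but were not uniformly low. Sparc stood at 2234 per kb and Thy1 at 66.8, whereas Dcn stood at 4.27, Col1a1 at 3.34, Col1a2 at 2.58, Lum at 0.594 and Postn at 0.288. Of the 3 neuronal markers, Snap25 stood at 3.32 per kb, Rbfox3 at 2.39 and Syt1 at 1.84. The part of feeder RNA in the SR levels was not tested.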

How the data were processed

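Total RNA per the labels and the study's methods (the extraction text of the labels describes chromatin RNA) was made into stranded libraries and sequenced as read pairs of 81 bases. According to those methods, rRNA reads were removed with bowtie2, the rest were aligned to mm10 with STAR, duplicates were removed with Picard, and genes and transposable elements were counted with TEtranscripts on a UCSC mm10 gene annotation, so the GENCODE models used here for lengths and overlaps may differ from those counted. The deposited table names no library and is taken as made from all 8. Its only column used here is a signal that the authors computed as the mean, over both groups, of counts divided by size factors, and counts per library were not analysed here, so depth is unknown. The other 5 columns hold the authors' comparison (log2 fold change, its error, a statistic and p-values) and were not used, so no test was made and p-values are not given.

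Symbols were matched to GENCODE vM21, directly for 16660 genes and by an older symbol in RefSeq for 721. Lengths, codons and 81-base stretches were read from its transcripts with Python 3.11.15 and numpy 2.4.6, in code tested on simulated data. Alternatives were other lengths (union of exons, median coding transcript, APPRIS principal transcript), other backgrounds, and only matched genes. The members and gene lists were chosen with earlier results of these data known. Every member is named. Other lists are given gene by gene up to 12 genes, and otherwise by median and range.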

Additional observations from a re-analysis of the deposited data

How the results depend on the processing

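The median percentile of the SR family by mean count was 97.0 among all genes, 96.1 among those whose mean count reached 10, 96.9 among all features, and 97.0 among genes matched to the annotation. The median percentile per kb was 96.0 with the coding transcript, 96.4 with the union of exons, 96.2 with the median coding transcript, 96.1 with the APPRIS principal transcript, which was chosen after seeing the data, and 95.0 among genes whose mean count reached 10. The ratio of the highest to the lowest level per kb went from 25.8 to 8.63 with the union of exons, 11.7 with the median coding transcript and 11.2 with the APPRIS principal transcript. The level of Srsf1 itself went from 9469 per kb to 2005 with the union of exons, 3883 with the median coding transcript and 2135 with the APPRIS principal transcript. Srsf1 was highest with the coding transcript and the union of exons, and Srsf5 with the other two lengths. Srsf4 was lowest under all 4 lengths. No paired analysis was possible because no value per library was used. The pooled mean has no spread, so differences between neighbours in the order have no error here.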
